A study of Mus musculus with 24 samples.

Results

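Ifi202b, Ifi203, Ifi204, Ifi205, Trim30a and Trim30d are 6 of the 15323 genes listed in at least 1 of the 6 tables of group means that the authors deposited for mouse mammospheres. They are copies from a pair of gene clusters, the Ifi200 cluster of chromosome 1 and the Trim30 cluster of chromosome 7. They were chosen by symbol, with the results known, because of extreme changes in opposite directions in Trp53-knockout spheres and because they are close copies of their neighbours. The values of the knockout comparison therefore only describe them, and support nothing.

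Mammospheres are floating spheres that mammary cells form on a non-adhesive surface. RNA sequencing covered 24 libraries in 8 groups, all labelled as the mouse strain FVB/Hsd, which the file headers call biological replicates. Wild-type spheres from mice 7 weeks old were infected with the lentiviral vector pWPI, either empty (3 libraries) or carrying Myc-ER (3 libraries), and were collected at passage 3. Myc-ER joins the Myc transcription factor to the hormone-binding domain of the oestrogen receptor, and the labels name no ligand for it. Spheres from breast tumours of MMTV-ErbB2 transgenic mice, in which a viral promoter active mainly in mammary epithelium drives ErbB2 (a mutated form, per the file headers), came from animals 12 to 15 weeks old at passage 6 to 7, without infection. Of these, 5 libraries were untreated and 3 came from spheres kept for 72 h in 2.5 µM Nutlin-3, an Mdm2 inhibitor that stabilises p53. Trp53-knockout spheres (2 libraries) came from normal glands of mice 7 weeks old, uninfected, at passage 6 to 7. Uninfected wild-type sphere cells from mice of the same age were sorted at passage 1 by PKH, a membrane dye diluted at each division, into cells with much dye (PKH-high, 2 libraries) and without it (PKH-negative, 3 libraries). A last group held PKH-negative wild-type cells from mice 7 weeks old, infected with Myc-ER and taken at passage 3 (3 libraries). It was collected 72 h after plating, and no such time is given for the uninfected sorted cells. Passage and infection differ between the 2 groups in the comparisons of the tumour, of the knockout and of Myc-ER in PKH-negative cells, and in the tumour comparison age differs too. Their part in those results cannot be told apart from that of the tumour, the knockout or Myc-ER.

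The Ifi200 genes encode interferon-inducible proteins with a C-terminal HIN domain that binds DNA, and most carry an N-terminal pyrin domain through which they join other proteins. Ifi204 encodes a nuclear and cytosolic DNA sensor related to human IFI16. Ifi202b encodes p202, which lacks the pyrin domain and, in mouse cells, counteracts Aim2, the DNA receptor of the inflammasome. In published mouse work p202 was also reported to bind p53 and its gene to be repressed by p53. Ifi203 and Ifi205 are further copies of the family. Trim30a encodes a RING-finger protein that dampens Toll-like receptor signalling to NF-kB in mouse macrophages, and Trim30d is a neighbouring copy of it. The number and the expression of Ifi200 copies are known to differ between inbred mouse strains. All libraries carry the same strain label, but whether the knockout and control mice carried the same copies in these clusters was not tested.

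All 6 genes are annotated as protein coding on the minus strand of mm10 in GENCODE. On chromosome 1, Ifi204 spans 173747293 to 173766943, Ifi203 spans 173920407 to 173942672, Ifi202b spans 173962568 to 173982744 and Ifi205 spans 174011998 to 174031810. On chromosome 7, Trim30a spans 104409025 to 104465193 and Trim30d spans 104470014 to 104507849. The annotated span of Mndal, another Ifi200 gene, covers 22085 of the 22266 bases of Ifi203.

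The 250 bases before 4 of the annotated starts are shown, because Ifi202b and Trim30d had the extreme values in the knockout, Trim30a is the copy next to Trim30d, and Ifi205 was lower in most other comparisons. They are RefSeq sequences of GRCm38.p6, read 5′ to 3′ on the gene's own strand, which is the minus strand for all 4. The windows are chr1:173982845-173983094 for Ifi202b, chr1:174031756-174032005 for Ifi205, chr7:104465194-104465443 for Trim30a and chr7:104507850-104508099 for Trim30d. Capitals mark the core of the interferon-stimulated response element, searched on both strands as GAAA, any 2 bases and GAAA again.
Ifi202b: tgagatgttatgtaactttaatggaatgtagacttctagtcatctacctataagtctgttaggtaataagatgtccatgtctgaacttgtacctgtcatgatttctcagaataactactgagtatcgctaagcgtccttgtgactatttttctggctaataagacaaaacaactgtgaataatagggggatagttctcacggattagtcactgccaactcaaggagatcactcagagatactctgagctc
Ifi205: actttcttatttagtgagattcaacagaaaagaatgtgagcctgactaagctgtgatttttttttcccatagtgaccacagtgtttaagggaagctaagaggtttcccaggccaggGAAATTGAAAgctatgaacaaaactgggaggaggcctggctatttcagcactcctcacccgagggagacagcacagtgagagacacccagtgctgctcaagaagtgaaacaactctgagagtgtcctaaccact
Trim30a: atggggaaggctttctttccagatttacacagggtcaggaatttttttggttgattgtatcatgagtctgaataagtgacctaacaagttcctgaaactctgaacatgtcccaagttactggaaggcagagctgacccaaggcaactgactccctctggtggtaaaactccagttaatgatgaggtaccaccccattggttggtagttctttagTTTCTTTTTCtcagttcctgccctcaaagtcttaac
Trim30d: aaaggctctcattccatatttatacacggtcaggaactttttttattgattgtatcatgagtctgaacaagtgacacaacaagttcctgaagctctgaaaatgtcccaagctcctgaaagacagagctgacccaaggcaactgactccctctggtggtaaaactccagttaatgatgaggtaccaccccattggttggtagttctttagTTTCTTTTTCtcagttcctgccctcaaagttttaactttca
The Trim30a and Trim30d windows, taken from 250 bases before to 50 bases after the start, were identical at 277 of 305 aligned positions (90.8%). Pairs of windows that included an Ifi200 gene were identical at 43.9% to 49.1%. The response-element core lay at position -36 from the annotated start of this Trim30a window and at -41 in Trim30d. Ifi205 held 2 cores, of which 1 lies after the start and is not printed, and 1 of the 2 windows of Ifi203 held 1 core at -35. The second annotated window of Trim30a also held 1 core, after its start. The Ifi202b window held none, but it held 1 core of the gamma-activated site (TTCNNNGAA, both strands). Over 32851 windows of this size, 3.44% held the response-element core and 8.30% the gamma-activated core. A p53 response element, allowing 2 mismatches and a spacer of up to 13 bases, was matched in the Trim30a window shown and in no other of the 7 windows of the members, against 4.09% of all windows. These are matches of letters, not sites shown to be bound. Promoter entries matched 5 of the 6 genes, all but Ifi204.

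How far reads can tell the copies apart was measured from their GENCODE transcripts. No word of 50 bases in the Ifi202b transcript occurred in a transcript of another gene. The share was 6.53% in Trim30a and 8.29% in Trim30d, mostly words the pair share, 10.9% in Ifi203 and 30.2% in Ifi204. It reached 49.6% in Ifi205, nearly all of it shared with the neighbour that the tables call Mnda and GENCODE calls Ifi211. With words of 100 bases these shares were 0% for Ifi202b, 4.79% for Trim30a, 5.53% for Trim30d, 3.31% for Ifi203, 16.8% for Ifi204 and 41.5% for Ifi205. By this measure the values of Ifi204 and Ifi205 are less certain than those of Ifi202b and the Trim30 pair. Ifi203 lay above the Trim30 pair with words of 50 bases and below it with words of 100. Its values are less certain for another reason, that it shares its locus with Mndal. The measure covers only copies in the GENCODE reference. Whether reads from copies that differ in the mice used were assigned to the right gene was not tested, for Ifi202b and Trim30d as well.

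Levels are the authors' mean normalised read counts per group. Values per library were not analysed here, so no spread between libraries and no overlap of groups can be given. Each comparison is given as the authors' log2 fold change, with the standard error (SE) that its p-value implies. A gene is called changed where the authors' deposited adjusted p, from DESeq2 over all genes of that table, was below 0.05. Each table was normalised on its own.

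In wild-type spheres with the empty vector, 5 of the members had means far above the lower limit of the tables and Trim30d lay close to it. In the knockout table the empty-vector means were 5037 for Ifi202b, 2725 for Ifi203, 2704 for Ifi204, 1151 for Ifi205, 2210 for Trim30a and 10.6 for Trim30d. Per kilobase of annotated exon, Ifi202b led with 2968 mean normalised counts, followed by Ifi204 with 759, Trim30a with 538, Ifi203 with 406, Ifi205 with 276 and Trim30d with 2.83. On that scale Ifi202b made up 57.6% of the sum over the 10 listed Ifi200 genes. Its share lay between 52.4% and 65.6% in every group of the 5 comparisons other than the knockout.

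**Figure D1:**
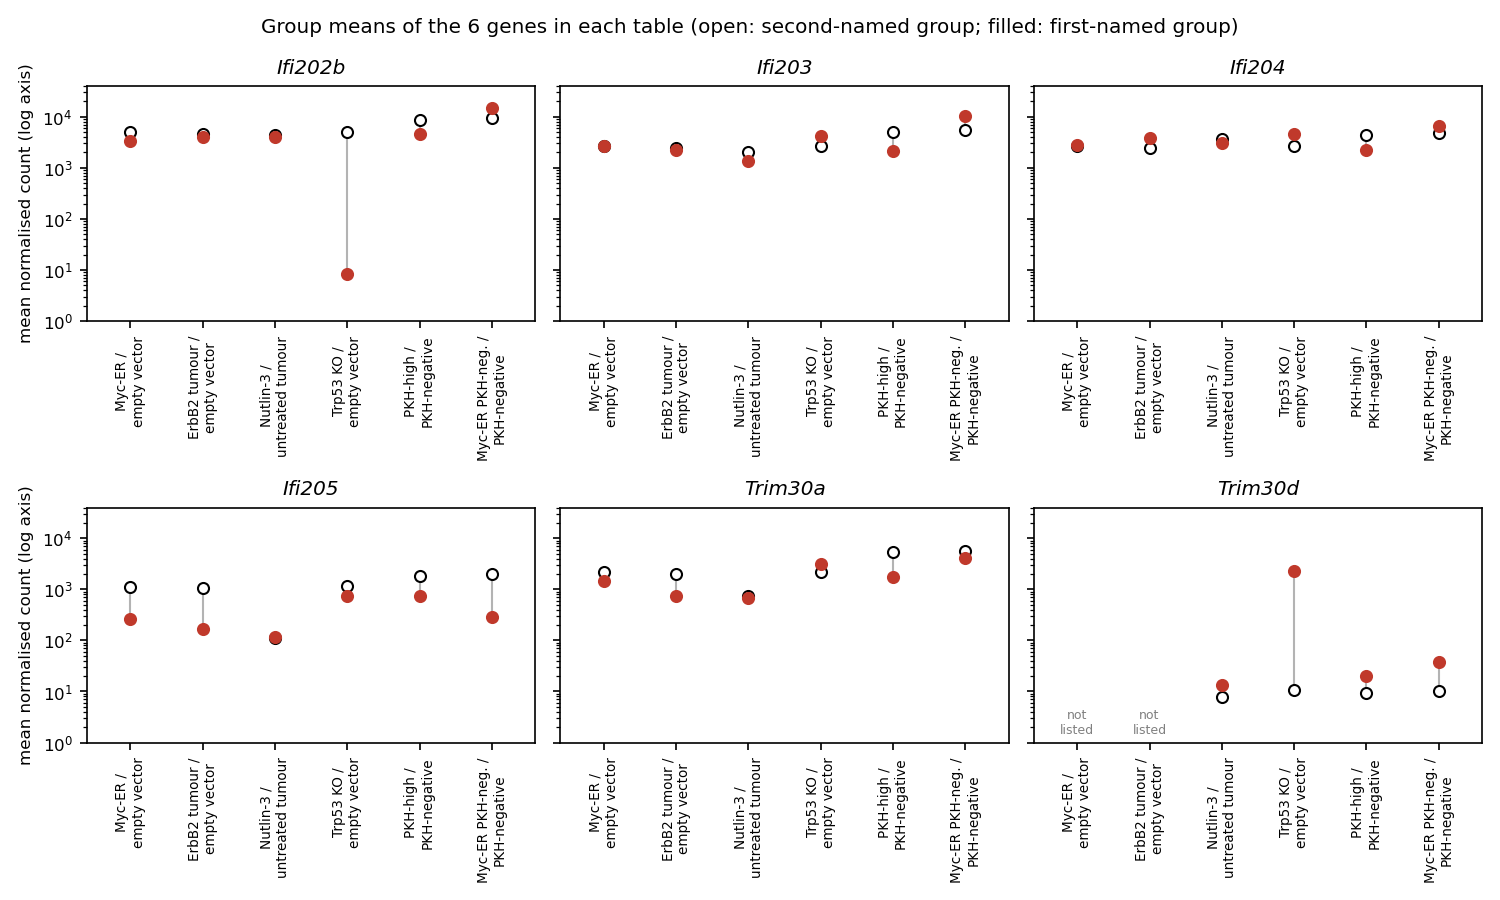
Mean normalised count (log axis) of each gene in the 6 tables, with an open point for the second-named and a filled point for the first-named group of each comparison. Ifi202b is at 8.26 and Trim30d at 2305 in the Trp53 knockout, whereas Trim30d lies between 7.71 and 38.2 in every other group that lists it.

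The Trp53-knockout comparison, which chose the genes, holds their extreme values. The mean of Ifi202b was 8.26 in the knockout and 5037 in the empty-vector spheres, a ratio of 610 between the means and a log2 fold change of -9.03 ± 0.37 (SE, 2 and 3 libraries). This was the lowest log2 fold change of the 14699 genes in the authors' deposited table. Trim30d went the other way, with 2305 in the knockout and 10.6 in the empty-vector spheres, a ratio of 217 and a log2 fold change of 7.63 ± 0.32. It ranked 3 from the highest. It passed the authors' limit on low values through its level in the knockout.

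The remaining 4 members moved much less. Ifi204 had 4684 against 2704 (log2 fold change 0.78 ± 0.36), and Ifi203 had 4205 against 2725 (0.62 ± 0.32). Trim30a had 3184 against 2210 (0.52 ± 0.28), and Ifi205 had 735 against 1151 (-0.64 ± 0.31). The authors' adjusted p was 0.0677 for Ifi204, 0.105 for Ifi203, 0.118 for Trim30a and 0.0757 for Ifi205, so 2 of the 6 members were past the threshold (1 higher, 1 lower). The authors' threshold called 45.9% of all genes, 22.3% as higher and 23.6% as lower, and since this contrast chose the members nothing is read from their count.

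**Figure D2:**
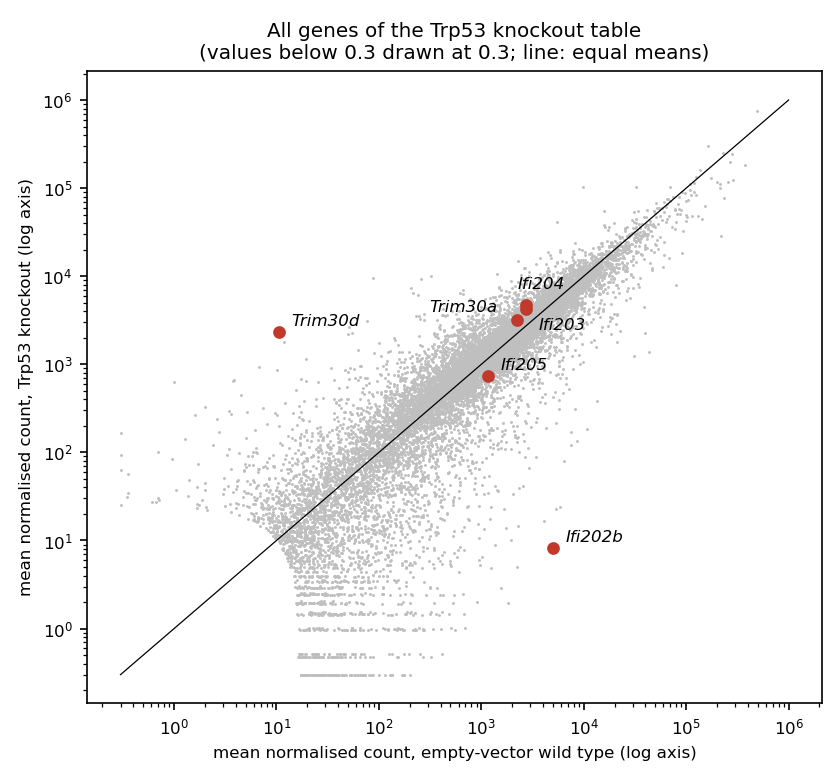
Mean normalised count of every gene in the Trp53 knockout (vertical, log axis) against the empty-vector wild type (horizontal, log axis), with the line of equal means and the 6 genes in red. Ifi202b (8.26 against 5037) and Trim30d (2305 against 10.6) lie far off the line on opposite sides, and the other 4 lie close to it.

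Because the members are neighbours, their clusters were followed gene by gene in the same table. Among the other Ifi200 genes, 5 of the 6 listed were called higher in the knockout and 1 was called lower, with a median log2 fold change of 2.82 against 0.01 over all genes. Mndal rose from 366 to 3158 (3.09 ± 0.23), Pyhin1 from 166 to 1051 (2.65 ± 0.20) and Mnda from 447 to 1310 (1.54 ± 0.23). Mndal shares its locus with Ifi203, and Mnda shares words with Ifi204 and Ifi205. The doubt about read assignment therefore holds for Mndal and Mnda too, and its size was not measured. Pydc3 rose from 42.3 to 401 (DESeq2 adjusted p 6.35e-05) and Pydc4 from 1.88 to 29.1 (3.13 ± 1.04). Pydc4 passed the authors' limit on low values through its level in the knockout. Nothing is therefore read from its rise or from its place in the count and the median. Aim2 fell from 1196 to 305 (-1.94 ± 0.34). Ifi202b thus lay between Ifi203, which had a higher mean in the knockout, and Ifi205, which had a lower one, and both of those were within 1 log2 unit of no change. Farther out on the same chromosome, Fmn2 fell (-1.31). Fcer1a, a chain of the IgE receptor, was listed at 0 in the knockout and at 18.6 in the empty-vector spheres. It passed the authors' limit on low values through the latter, so nothing is read from its fall.

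In the Trim30 cluster and its relatives, 3 of 8 other listed genes were called higher and 2 lower, with a median log2 fold change of -0.20. Trim12a rose from 4.48 to 446 (6.35 ± 0.54) and the pseudogene Trim30e-ps1, next to Trim30d, from 5.00 to 68.6 (3.59 ± 0.55). Like Trim30d, Trim12a and Trim30e-ps1 passed the authors' limit on low values through their level in the knockout. Nothing is therefore read from their rise or from their place in the count and the median. Trim34a rose from 191 to 491 (1.34 ± 0.35), whereas its copy Trim34b fell from 79.7 to 3.37 (-4.26 ± 0.61). Words shared by these copies were not counted, so whether reads were assigned to the right copy was not tested. Trim68, a relative on the same chromosome, fell from 419 to 218 (-0.93 ± 0.28). Trim12c, between Trim34b and Trim30a, had 1154 against 1528 (adjusted p 0.0531). Trim6 had 29.4 against 46.9 (adjusted p 0.438) and Trim21 had 1025 against 1029 (adjusted p 0.992). Trim34a, called higher, Trim34b, called lower, and Trim12c, which did not pass, thus lay in the same cluster, with the doubt about reads of the Trim34 copies.

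The make-up of each family changed accordingly on the scale of counts per kilobase. Ifi202b went from 57.6% of the listed Ifi200 genes in the empty-vector spheres to 0.116% in the knockout, where Ifi204 held 31.4%, Mndal 20.8%, Mnda 17.5% and Ifi203 15.0%. In the Trim30 family, Trim30a went from 99.0% to 54.4% and Trim30d from 0.521% to 43.1%. In no other group did Trim30d exceed 2.1% of its listed family.

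**Figure D3:**
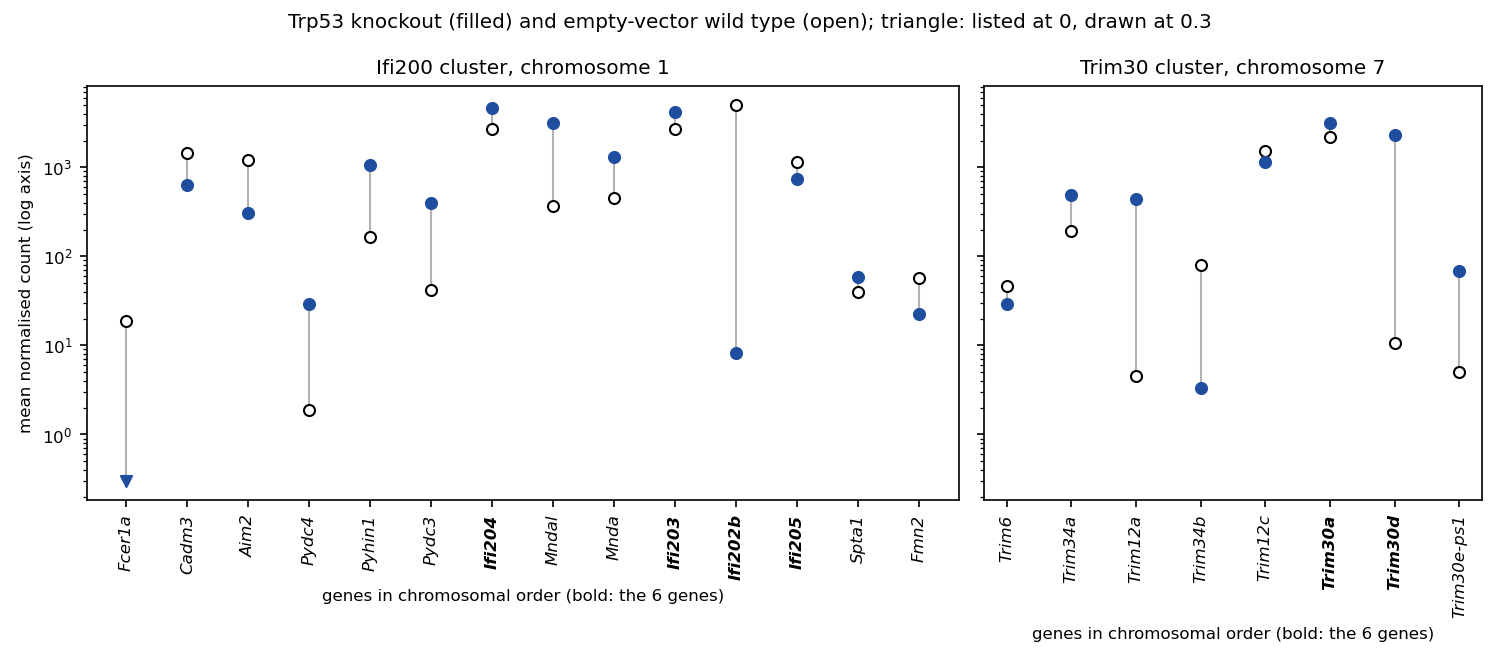
Mean normalised counts (log axis) of the genes listed within 0.75 Mb of the members, in chromosomal order, in the Trp53 knockout (filled) and the empty-vector wild type (open), with members in bold. Trim34b (3.37 in the knockout) was lower, Mndal (3158) and Trim34a (491) were higher, and the means of Ifi203 and Trim12c lie close together. Ifi202b (8.26) and Trim30d (2305) were chosen on this comparison. Trim30d and Trim12a (446) were listed through their level in the knockout, so nothing is read from their rise.

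The knockout label was checked on p53 itself and its targets. Trp53 had a mean of 2998 in the library group labelled knockout and 4207 in the empty-vector group (-0.49 ± 0.12, adjusted p 2.40e-04), and where on the gene these reads lie was not analysed here. The p53 target Cdkn1a, an inhibitor of cyclin-dependent kinases, fell from 22565 to 2370 (-3.22 ± 0.24) and Mdm2, which degrades p53, fell from 19005 to 3365 (-2.48 ± 0.23). Of 30 listed p53 targets 20 were lower and 2 higher, with Eda2r at -5.39 ± 0.26, Perp at -4.70 ± 0.75 and Pmaip1 at -4.07 ± 0.37. Interferon-stimulated genes, the class to which the members belong, were higher for 19 of 41 and lower for none, with a median of 0.76. Cxcl10, a chemokine, was at 2.98 ± 0.54, Xaf1 at 2.20 ± 0.34 and the guanylate-binding Gbp3 at 1.72 ± 0.51. Among interferon receptors and signal transducers 3 of 16 were higher and 4 lower, and among genes of cytosolic DNA sensing and the inflammasome 4 of 19 were higher and 3 lower.

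Markers of other cells differed between these groups as well. Of 14 listed macrophage and myeloid markers 12 were lower and 1 higher in the knockout, their summed mean was 1004 against 4656, and Tyrobp, Aif1, C1qa and C1qb were listed at 0. The 1 higher gene, Cd14, supplied 811 of the sum in the knockout and 342 of that in the control, so the sums understate the fall of the others. Of 12 endothelial markers 11 were lower (summed mean 578 against 8578, Sox17 listed at 0), and of 12 luminal markers 9 were lower (2663 against 6678). Most of the luminal sum in the knockout came from Krt18 (1559 against 812) and Krt19 (495 against 151), which did not pass. Lymphocyte markers were 2 of 3 lower, and basal markers 6 of 9 lower and 1 higher (11773 against 9367, of which Itga6 made up 11241 and 6129). Fibroblast markers were 2 of 13 lower (597844 against 891398). Of those sums the called gene Fbln2 made up 28478 and 220474, and Col1a1, Col1a2 and Col3a1 did not pass. In bulk RNA, fewer cells of a type and less RNA per cell cannot be told apart. The part of these cell types in the values of the members, and in those of the p53 targets above, was not tested. In the untreated tumour spheres Elf5 was listed at 0. The luminal markers Epcam, Krt8 and Cdh1 and the basal markers Krt5 and Krt14 were not listed, which does not mean absent. With the empty vector in the Myc-ER comparison Epcam had 579, Krt8 1032, Cdh1 479, Krt14 238 and Krt5 13.8. Why the tumour comparison leaves them out is not known here, and neither is their tumour level. The collagen Col1a2 had a mean of 79046 in the tumour and 123578 with the empty vector (DESeq2 adjusted p 0.101).

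In unsorted wild-type spheres with Myc-ER, 3 of the 5 listed members were lower than with the empty vector and none was higher, against 50.8% of all genes called, 26.7% as higher and 24.1% as lower. The comparison shares its empty-vector libraries with the knockout and tumour comparisons. Ifi205 had a mean of 264 with Myc-ER and 1133 with the empty vector, a log2 fold change of -2.02 ± 0.30 (SE, 3 and 3 libraries; DESeq2 adjusted p 3.51e-10). It ranked 207 from the lowest of 13873 genes. Ifi202b had 3398 against 4948 (-0.54 ± 0.14, adjusted p 3.83e-04) and Trim30a had 1429 against 2169 (-0.59 ± 0.23, adjusted p 0.0247). Ifi203 had 2685 against 2679 (adjusted p 0.989) and Ifi204 had 2798 against 2653 (adjusted p 0.584). Trim30d was not listed.

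Around them, 1 of 5 other Ifi200 genes was called, Pydc3 at 16.6 against 41.4 (-1.16 ± 0.50), while Mnda, Mndal, Pyhin1 and Aim2 did not pass (adjusted p between 0.220 and 0.749). In the Trim list 4 of 6 were lower, which were Trim34b (-0.83 ± 0.27), Trim34a (-0.68 ± 0.23), Trim21 (-0.64 ± 0.20) and Trim12c (-0.56 ± 0.13). Trim6 (adjusted p 0.783) and Trim68 (adjusted p 0.152) did not pass. Of 40 interferon-stimulated genes 19 were lower and none higher (median -0.59 against -0.02 over all genes), led by Oas2 (-1.43), Zbp1 (-1.18) and Mx1 (-1.08). The signal transducers were lower for 10 of 16, with Irf7 at -1.58 and Stat2 at -1.24. Macrophage markers were lower for 11 of 14 (summed mean 2054 against 4551), endothelial markers for 7 of 12 (3503 against 8367) and fibroblast markers for 8 of 12 (339192 against 859931). Basal markers were lower for 3 of 10, luminal markers for 2 of 13 and lymphocyte markers for 1 of 3, with none higher, and the part of all these lists in the members' values was not tested.

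In ErbB2 tumour spheres, 2 of the 5 listed members fell and 1 rose, against 27.1% of all genes called, 13.5% as higher and 13.6% as lower. Trim30a fell to 741 from 1995 in the empty-vector spheres (-1.42 ± 0.22, SE, 5 and 3 libraries; adjusted p 7.32e-09). Ifi205 fell to 168 from 1039 (-2.50 ± 0.56, adjusted p 1.12e-04). Ifi204, the DNA sensor, rose to 3752 from 2441 (0.62 ± 0.18, adjusted p 0.00442). Ifi202b had 4064 against 4547 (adjusted p 0.693) and Ifi203 had 2237 against 2460 (adjusted p 0.873), and Trim30d was again not listed. Ifi205 had the largest fall of the members in both the Myc-ER and the tumour comparison, and the gap between its 2 fold changes was smaller than the tumour comparison's SE.

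Of the other Ifi200 genes Aim2 fell to 243 from 1079 (-2.06 ± 0.53) as 1 of 4 listed, and Mnda, Mndal and Pyhin1 did not pass (adjusted p between 0.103 and 0.713). In the Trim list 5 of 6 fell, which were Trim6 (-1.59 ± 0.60), Trim34b (-1.32 ± 0.37), Trim34a (-1.19 ± 0.26), Trim21 (-0.82 ± 0.19) and Trim12c (-0.59 ± 0.17), while Trim68 did not pass (adjusted p 0.978). Interferon-stimulated genes fell for 35 of 41 and rose for none (median -1.67 against 0.02 over all genes), with Oas2 at -5.82, Zbp1 at -4.97 and Mx1 at -3.77. Of 9 listed macrophage markers 7 were lower (summed mean 807 against 3537), all 5 listed endothelial markers were lower (497 against 2213, Sox17 listed at 0), and 3 of 5 luminal markers were lower (897 against 3570). Fibroblast markers were lower for 5 of 13 and higher for 1 (502390 against 804664), with Postn at -4.68, Thy1 at -3.46 and Pdgfra at 1.05. Basal markers were lower for 2 of 6, Acta2 (-3.88) and Tagln (-3.72), and higher for 1, Itga6 (1.11), which made up most of their summed mean (12728 against 7610). Of the endothelial list, Pecam1 and Cdh5 were not listed here, though they had 1617 and 1899 with the empty vector in the Myc-ER comparison. The counts therefore cover only part of that list. The 1 listed lymphocyte marker did not pass. Their part was not tested.

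With Nutlin-3 in the tumour spheres 0 of the 6 members passed the threshold, against 14.7% of all genes called, 7.71% as higher and 7.03% as lower. The authors paired 3 treated with 3 untreated libraries by tumour, and their DESeq2 test gave 1 of the 6 members an unadjusted p below 0.05, Ifi204 (p 0.0206, adjusted p 0.108). Its mean was 3085 with Nutlin-3 and 3708 without. The means were 4063 against 4448 for Ifi202b, 1367 against 2067 for Ifi203 and 115 against 114 for Ifi205. They were 687 against 736 for Trim30a and 13.5 against 7.71 for Trim30d, and the adjusted p of these 5 genes lay between 0.586 and 0.785. In the same libraries 21 of 30 p53 targets rose and 0 fell, among them Perp at 2.52, Rprm at 1.82 and Fas at 1.31. Of the other Ifi200 genes Pyhin1 fell to 123 from 227 (-0.90, adjusted p 0.00112), and of the 6 Trim genes 0 passed (DESeq2, 0 of them at an unadjusted p below 0.05). Of the DNA sensing list Samhd1, a nucleotide hydrolase, fell (-0.58), as did Mb21d1, which encodes the DNA sensor cGAS (-0.49). Of 41 interferon-stimulated genes 1 rose, Tap1 (0.36). Few cell markers passed, with 1 of 12 macrophage markers higher, 2 of 12 fibroblast markers higher and 1 lower, and 1 of 6 basal markers lower.

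**Figure D4:**
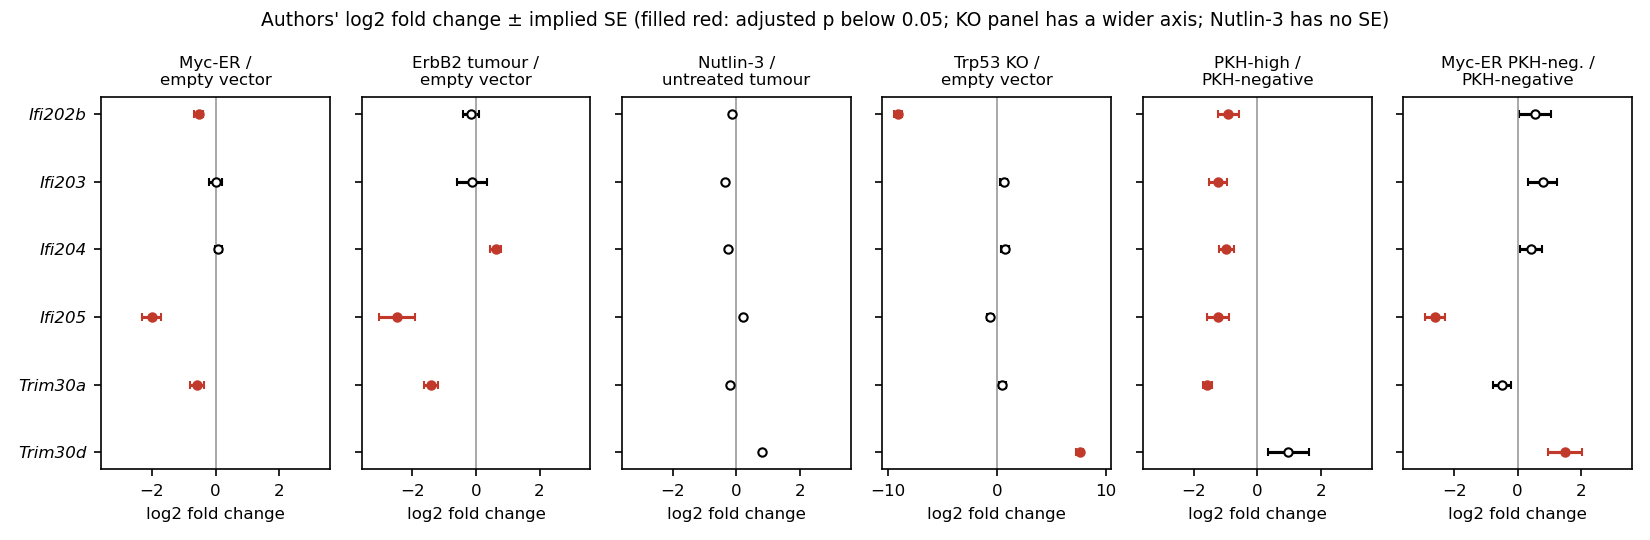
The authors' log2 fold change of each gene in the 6 comparisons, with bars of ± 1 implied SE (none for Nutlin-3) and filled red points where the adjusted p was below 0.05; the knockout panel has a wider axis. Ifi205 lies at -2.02, -2.50, -1.24 and -2.60 in the 4 comparisons that called it, and 5 of 6 genes lie left of 0 in PKH-high cells.

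Cells sorted by PKH differed in most of the members at the adjusted p used, and in 1 of them, Trim30a, with Bonferroni adjustment. Relative to PKH-negative cells, 5 of the 6 were lower in PKH-high cells and none was higher, against 30.7% of all genes called, 15.6% as higher and 15.1% as lower. Trim30a had 1762 in PKH-high and 5273 in PKH-negative cells (-1.58 ± 0.14, SE, 2 and 3 libraries; adjusted p 2.94e-28). Ifi205 had 742 against 1795 (-1.24 ± 0.35, adjusted p 0.00247) and Ifi203 had 2140 against 5093 (-1.23 ± 0.28, adjusted p 9.78e-05). Ifi204 had 2245 against 4437 (-0.97 ± 0.23, adjusted p 1.89e-04) and Ifi202b had 4586 against 8745 (-0.91 ± 0.33, adjusted p 0.0213). Trim30d had 19.6 against 9.32 and did not pass (0.97 ± 0.64, adjusted p 0.261). The fold changes of the 4 Ifi200 members, from -1.24 to -0.91, spread over no more than about their SEs.

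Among the other Ifi200 genes 3 of 5 were lower, which were Pyhin1 at 462 against 2195 (-2.22 ± 0.24), Mndal at 187 against 610 (-1.68 ± 0.29) and Mnda at 212 against 662 (-1.61 ± 0.29). Aim2 (adjusted p 0.624) and Pydc3 (adjusted p 0.200) did not pass. In the Trim list Trim21 (-0.90 ± 0.24), Trim34a (-0.75 ± 0.23) and Trim12c (-0.57 ± 0.17) were lower and Trim68 was higher (0.51 ± 0.21), while Trim34b (adjusted p 0.103) and Trim6 (adjusted p 0.591) did not pass. Interferon-stimulated genes were lower for 29 of 41 and higher for none (median -0.97 against 0.01 over all genes), led by Ifi44 (-2.30), Oas3 (-2.18) and Oas2 (-1.80). Among the signal transducers, 5 of 16 were lower, including Irf7 (-1.65), and 3 were higher, including Irf8 (4.20) and Irf5 (2.14). The sorted groups also differed in markers of several cell types. Macrophage markers were higher in PKH-high cells for 13 of 14 (summed mean 60054 against 1573), endothelial markers for 11 of 12 (57437 against 2277), luminal markers for 12 of 13 (57806 against 2516) and basal markers for 9 of 11 (28055 against 6680). Lymphocyte markers were higher for 1 of 2 (208 against 62.4), and fibroblast markers were lower for 5 of 13 and higher for 1 (401098 against 594197). Some of these markers, such as C1qc (3746 against 3.32) and Krt5 (383 against 2.45), passed the authors' limit on low values through PKH-high cells. Nothing is read from the rise of such genes. The part of the markers in the members' values was not tested.

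Myc-ER in PKH-negative cells was compared with the same uninfected PKH-negative libraries. Here 1 member fell and 1 rose, against 37.5% of all genes called, 18.9% as higher and 18.5% as lower. Ifi205 fell to 287 from 1951 (-2.60 ± 0.31, SE, 3 and 3 libraries; adjusted p 1.83e-15), and it ranked 110 from the lowest of 14382 genes. Trim30d rose to 38.2 from 10.1 (1.49 ± 0.54, adjusted p 0.0179). Trim30d did not pass with stricter settings on the threshold or on low means. Ifi202b had 14972 against 9510 (0.54 ± 0.50, adjusted p 0.426), Ifi203 had 10391 against 5538 (0.79 ± 0.45, adjusted p 0.165) and Ifi204 had 6607 against 4826 (0.42 ± 0.34, adjusted p 0.344). Trim30a had 4026 against 5736 (-0.49 ± 0.29, adjusted p 0.185). Ifi202b was called lower with Myc-ER in unsorted spheres and had a higher mean without passing here. The difference between those comparisons was not tested.

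Of the other Ifi200 genes, Pyhin1 fell to 697 from 2388 (-1.64 ± 0.35) and Pydc3 rose to 66.3 from 24.1 (1.32 ± 0.36), while Mnda, Mndal and Aim2 did not pass (adjusted p between 0.525 and 0.888). Of the 6 Trim genes 0 passed the DESeq2 test (adjusted p between 0.0518 and 0.676), and 1 had an unadjusted p below 0.05 (Trim34a, p 0.0195). Interferon-stimulated genes were higher for 4 and lower for 7 of 41, with Cxcl10 at 4.80, Mx1 at 3.21 and Rsad2, an antiviral enzyme, at 1.76 among the higher ones. Endothelial markers were lower for 7 and higher for 1 of 11 (summed mean 1518 against 2465), fibroblast markers were lower for 5 of 13 (327125 against 646253), and macrophage markers were lower for 2 and higher for 1 of 10 (1489 against 1685). Lymphocyte markers were higher for 2 of 5 (261 against 79.1), which were Cd3g at 23.4 against 0.29 and Cd8a at 30.3 against 3.92. Both passed the authors' limit on low values through their level with Myc-ER. Nothing is therefore read from their rise or from this count. The macrophage-list gene that was higher was Ptprc, a marker of all leukocytes (log2 fold change 2.33 ± 0.58). Basal markers were lower for 3 of 9 (6710 against 7262) and luminal markers for 1 of 12 (1913 against 2730). Their part was not tested.

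Across the comparisons each gene had its own pattern. Outside the knockout, Ifi202b kept between 3398 and 14972 mean normalised counts, with log2 fold changes from -0.91 to 0.54. Ifi203 ranged from -1.23 to 0.79 and Ifi204 from -0.97 to 0.62. Ifi205 was called in 4 of 6 comparisons, each time lower, and Trim30a was called in 3, each time lower. There are 3 comparisons that share the empty-vector libraries and 2 that share the PKH-negative ones, so their values are given side by side only. Against the empty vector Ifi205 was lowest in the tumour (-2.50 ± 0.56), then with Myc-ER (-2.02 ± 0.30), then in the knockout (-0.64 ± 0.31). Trim30a was lowest in the tumour (-1.42 ± 0.22), then with Myc-ER (-0.59 ± 0.23), and was above the control mean in the knockout (0.52 ± 0.28).

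Genes with the most similar pattern were found by the Euclidean distance between log2 ratios of group means over 6 comparisons, among 11753 genes. For Trim30a they were Phf11d (0.34), Irgm2 (0.47) and Ddx58 (0.57), the last encoding the RNA sensor RIG-I. For Ifi204 they were Mum1l1 (0.32), Prdx4 (0.41) and Oscp1 (0.42), for Ifi203 Glis3 (0.87), Nefm (0.94) and Ppp4r4 (0.97), and for Ifi205 Kng2 (0.59), Liph (0.92) and Fam169b (1.05). The nearest genes of Ifi202b were Gm8801 (2.78), Sycp1 (3.14) and H2-Q2 (3.29), whose own log2 ratios in the knockout were -7.10, -6.50 and -6.43. For Trim30d, over 4 comparisons and 11922 genes, they were Klra18 (2.43), Slc22a23 (2.69) and Gal3st3 (2.84). All these distances include the knockout ratio that chose the members, so for Ifi202b and Trim30d nothing is read from their size or from the genes they name.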

How the data were processed

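Polyadenylated RNA of mouse mammospheres was sequenced from TruSeq libraries, per the labels' protocols. The submitters' processing notes name DESeq2 1.10.1 for the statistics and, upstream of it, HTSeq 0.5.3p9, SAMtools 0.1.18, TopHat2 2.0.8, Bowtie2 2.1.0 and CASAVA 1.9, with build mm10. The gene annotation, the strand setting and the handling of reads matching several copies are not given in the sources used here. Each group's deposited signal is a mean of normalised read counts, per the file headers, and library totals were not analysed here. The authors' log2 fold changes come from DESeq2, per the file headers; the Nutlin-3 table was analysed as pairs by tumour. The authors' p-values and adjusted p-values are from the same tests, and their adjustment equals Benjamini-Hochberg over the listed genes, as checked by recomputing it. Tables list genes with a mean above 10, per the file headers. Some genes missing from the tumour table had empty-vector means far above that limit in the Myc-ER table, and the reason is not known here.

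From these values were computed the SE (the fold change on the log2 scale over the normal quantile that matches its p-value, not for Nutlin-3), log2 ratios of means with a pseudocount of 1, counts over gene lists, shared transcript words, promoter alignments and figures, with Python 3.11.15, numpy 2.4.6, pandas 2.3.3, scipy 1.17.1, Biopython 1.88 and matplotlib 3.10.9. The SE and the recomputed Benjamini-Hochberg adjustment were tested on simulated data, and the other steps were not. No new test across libraries was run, because only group means are used. The tables' wild-type spheres were matched to the empty-vector group, the only unsorted wild-type control in the labels. Entries naming no gene were left out. Between 93.9% and 95.5% of symbols matched GENCODE M21, from which coordinates and exon lengths were taken, and 5 older symbols were matched through RefSeq synonyms (Mnda, Pyhin1, Pydc3, Pydc4 and Mb21d1).

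The members and the gene lists were chosen with earlier results of these data known. Named were all 6 members, the other genes of both families, up to 3 called genes with the largest fold change per list where at least 3 were called (all lists in the knockout), called neighbours within 1 Mb, and the 3 genes of most similar pattern with a mean of at least 100 in 1 group; not all of these are printed, and 1 neighbouring gene is not reported here. Genes of marker lists listed at 0 or not listed, a few collagen, keratin and other marker genes, and Tap1, Samhd1 and Mb21d1 under Nutlin-3 were added after their values were seen. Alternatives were a threshold of 0.01, minimum means of 50 and 100, Bonferroni adjustment, and log2 ratios of means with pseudocounts of 1 and 10 or centred on the median gene.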

Additional observations from a re-analysis of the deposited data

How the results depend on the processing

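Bonferroni adjustment left 1 member called in each of the Myc-ER, ErbB2 tumour, PKH-high and Myc-ER PKH-negative comparisons. In the last of these a threshold of 0.01 and minimum means of 50 and 100 also left 1, because Trim30d dropped out; at those minimum means it is below the limit. Every other count of called members stayed within 1.5 times the reported one under these settings. Replacing the authors' fold change by the log2 ratio of group means (pseudocounts of 1 and 10, and 1 with centring on the median gene) changed the sign of no called value among 34, and of 1 uncalled value, Ifi205 under Nutlin-3, from 0.21 to -0.02 when centred. The largest shifts were 0.33, 0.92 and 0.30 log2 units, the second for Ifi202b in the knockout (-8.11). No paired analysis was possible because the tables used give group means only, with the Nutlin-3 pairs already set by the authors. For the same reason leave-one-out fits, other normalisations and a second count model were not run, and whether 1 library decides a value, above all in the groups of 2 libraries, was not tested.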
